A study of Mus musculus with 5 samples.

Results

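The transcripts described here encode the proteins of the cytosolic ribosome, the particle that makes protein from messenger RNA. Members were the gene symbols of the table that name a large-subunit (Rpl) or small-subunit (Rps) protein by a fixed spelling, with at least 1 FPKM (fragments scaled to transcript length and library depth) in at least 1 library. The spelling matched 81 of 22815 symbols and 78 passed the level, 46 Rpl and 32 Rps. The 3 left out, Rpl10l, Rpl39l and Rpl3l, are paralogs with narrow tissue expression, and the highest of their values was 0.59 FPKM, for Rpl3l in a WT pristane library. The members nearest above the level were Rps4l, with a mean of 8.77 FPKM over the libraries, and Rps15a, with 9.99 FPKM. Each of the 78 members was at 1 FPKM or more in all 5 libraries, so none entered through 1 group alone.

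The cells were washed from the peritoneal cavity of mice 8 weeks old and their RNA was sequenced by Smart-seq2, a method for small amounts of RNA. The 3 groups were wild-type C57BL/6 (WT) mice given phosphate-buffered saline (PBS, 1 library), WT mice given pristane (2 libraries) and Irf8-deficient mice given pristane (2 libraries, labelled Irf8KO). Pristane is a hydrocarbon oil that causes sterile inflammation of the peritoneum, and Irf8 is a transcription factor of monocyte and dendritic cell development. The sources used here do not name the Irf8 allele, the strain of the mutant mice, or the dose and time of pristane. They also do not say whether a library held 1 mouse or several, so p-values measure only the spread between these libraries.

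The ribosome joins a small subunit, which reads the messenger RNA, to a large subunit, which forms the peptide bond, and each protein is needed in about equal number. Their messenger RNAs are short, very abundant, and carry a pyrimidine-rich 5′ end, the terminal oligopyrimidine (TOP) tract, through which growth signals control their translation together. In leukocytes the ribosome content of a cell is known to follow its growth and its capacity to make protein.

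The starts of these genes are shown for the feature known of the family, which was found in part of the windows. RefSeq (GRCm38.p6) gave promoter windows, 250 bases before to 50 bases after a listed start, for 57 of the 78 members, 9 of them with more than 1 start. The 30 bases around 8 starts follow, 5′ to 3′ on the gene's own strand, in order from the largest fall after pristane in WT mice. Capitals mark a run of at least 6 pyrimidines that opens with C. For Rps24 and Rps27l another listed start, without such a run, is not printed.
Rpl26, chr11:68901551-68901580, plus strand: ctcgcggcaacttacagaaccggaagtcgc
Rps24, chr14:24490663-24490692, plus strand: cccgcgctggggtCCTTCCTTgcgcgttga
Rps27, chr3:90213634-90213663, minus strand: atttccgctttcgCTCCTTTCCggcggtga
Rpl12, chr2:32961697-32961726, plus strand: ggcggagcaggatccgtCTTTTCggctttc
Rps6, chr4:86857353-86857382, minus strand: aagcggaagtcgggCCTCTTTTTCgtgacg
Rplp2, chr7:141447636-141447665, plus strand: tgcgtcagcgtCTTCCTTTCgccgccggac
Rpl7a, chr2:26910792-26910821, plus strand: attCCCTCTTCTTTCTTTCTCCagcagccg
Rps27l, chr9:66946071-66946100, plus strand: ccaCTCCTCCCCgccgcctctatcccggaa

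Such a run lay within 15 bases of the start, on the transcribed strand, in 35 of 68 member windows (51.5%), against 22.5% of the 32851 windows in the RefSeq table. Listed starts can be off by some bases, so a window without a run, such as that of Rpl26, says only that these letters are not there. Other short motifs were searched on both strands of the 300 bases, where they may overlap one another. CTTCCG, the core bound by ETS-family factors, was present in 63.2% of member windows and 16.9% of all windows. GGGCGG, the GC box bound by Sp factors, was present in 60.3% and 35.7%, GCCATC, a core of YY1 sites, in 25% and 14.1%, and TATAAA, the TATA box, in 8.82% and 13.6%. The 34 members with a pyrimidine run had a median log2 change of −1.50 between WT pristane and PBS, and the 23 members with a window but no run −1.58. Rps27l, printed last, holds a run that ends before the listed start, whereas the other printed runs reach past it. Runs that end before the start also occur in members not printed that fell, such as Rpl10a (log2 change −1.57) and Rpl13 (−1.72). Rps27l was lowest with PBS, as described further on.

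Facts of the whole series that touch these values were as follows. The values of a library summed to between 451694 and 582696 FPKM, and the steps between low values corresponded to about 2265000 fragments in the PBS library and 2917000 to 5070000 in the pristane libraries. By these estimates, with 1 GENCODE transcript taken per gene, each of the 77 members with one rested on at least 33 fragments in every library. The fewest were for Rpl22. The estimate scales with the transcript taken, which for Rps15a had 5179 bases against a coding sequence of 390. With a shorter transcript fewer fragments would be estimated, so this minimum and the ranking are uncertain. Irf8 stood at 32.4 FPKM with PBS, 63.3 and 48.7 FPKM in WT pristane and 120.5 and 59.4 FPKM in those labelled Irf8KO. The log2 change of Irf8 between the pristane groups was 0.60 ± 0.41 (SE, limma adjusted p = 0.471), so its RNA was not lower there and leaves the genotype label unchecked. Large peritoneal macrophage markers, which check the labelled site, summed to 4173 FPKM with PBS, 1729 and 1159 FPKM in WT pristane and 4164 and 5855 FPKM in those labelled Irf8KO. Fn1, which other cells also express, made up 1562 and 926 FPKM of the WT pristane sums, and without it the other 15 markers summed to 3305 FPKM with PBS, 167 and 233 FPKM in WT pristane and 1830 and 2996 FPKM in those labelled Irf8KO. Of the 16 markers only Vsig4 was listed at 0 in a library, WT pristane replicate 1. Fibroblast and mesothelial markers were all listed at 0 with PBS and summed to between 25.04 and 78.4 FPKM with pristane.

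Ribosomal proteins took 32.1% of all FPKM in the PBS library and 11.01% and 11.09% in the WT pristane libraries. The libraries labelled Irf8KO stood between, at 14.0% and 12.5%. With PBS 60 of the 100 highest genes were members, against 28 and 27 in WT pristane and 38 and 35 in the libraries labelled Irf8KO. The median member stood at 1704 FPKM with PBS, 558 and 542 FPKM in WT pristane and 892 and 700 FPKM in those labelled Irf8KO. All 4 pristane libraries lay far below PBS. The pristane groups did not overlap, but in share and in median level Irf8KO pristane replicate 2 lay nearer to the WT libraries than to replicate 1. In bulk RNA, fewer cells rich in a transcript and less of it per cell cannot be told apart.

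**Figure D1:**
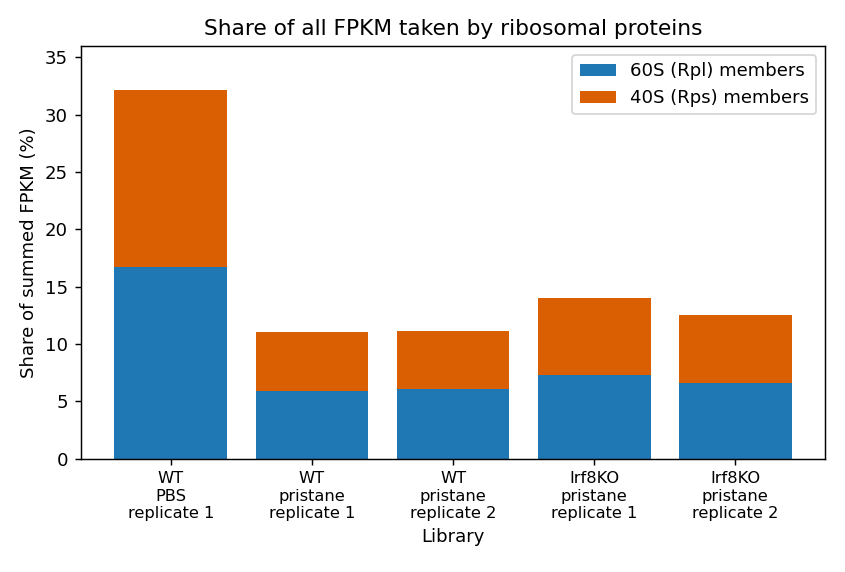
Share of each library's summed FPKM (%, vertical axis) taken by the 46 large-subunit (60S) and 32 small-subunit (40S) members, 1 bar per library. The PBS library reaches 32.1% and the 4 pristane libraries lie between 11.01% and 14.0%, with both subunits lower together.

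Both subunits were lower after pristane. Members of the large subunit took 16.7% of FPKM with PBS, 5.93% and 6.04% in WT pristane and 7.30% and 6.61% in the libraries labelled Irf8KO. Members of the small subunit took 15.4% with PBS, 5.08% and 5.06% in WT pristane and 6.74% and 5.88% in the libraries labelled Irf8KO. The ratio of the summed large to the summed small subunit was 1.09 with PBS, 1.17 and 1.19 in WT pristane and 1.08 and 1.12 in the libraries labelled Irf8KO. It was thus higher in both WT pristane libraries than in the other 3.

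The first comparison set WT pristane against PBS, for the response of normal mice to the oil. Of 78 members 37 fell and none rose (limma-trend on log2(FPKM + 1), adjusted p under 0.05 over 11117 genes), 21 of 46 in the large and 16 of 32 in the small subunit, where 5.46% of all genes were called lower and 5.18% higher. At an unadjusted p under 0.05 there were 74 members lower, against 17.8% of all genes lower and 15.9% higher. The median log2 change was −1.54, −1.54 for the large and −1.54 for the small subunit, against −0.07 over all genes tested. Both WT pristane libraries lay below the PBS library for 76 of 78 members, and for 44.5% of all genes. Over the members, the median ratio of the PBS level to the WT pristane mean was 2.90.

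**Figure D2:**
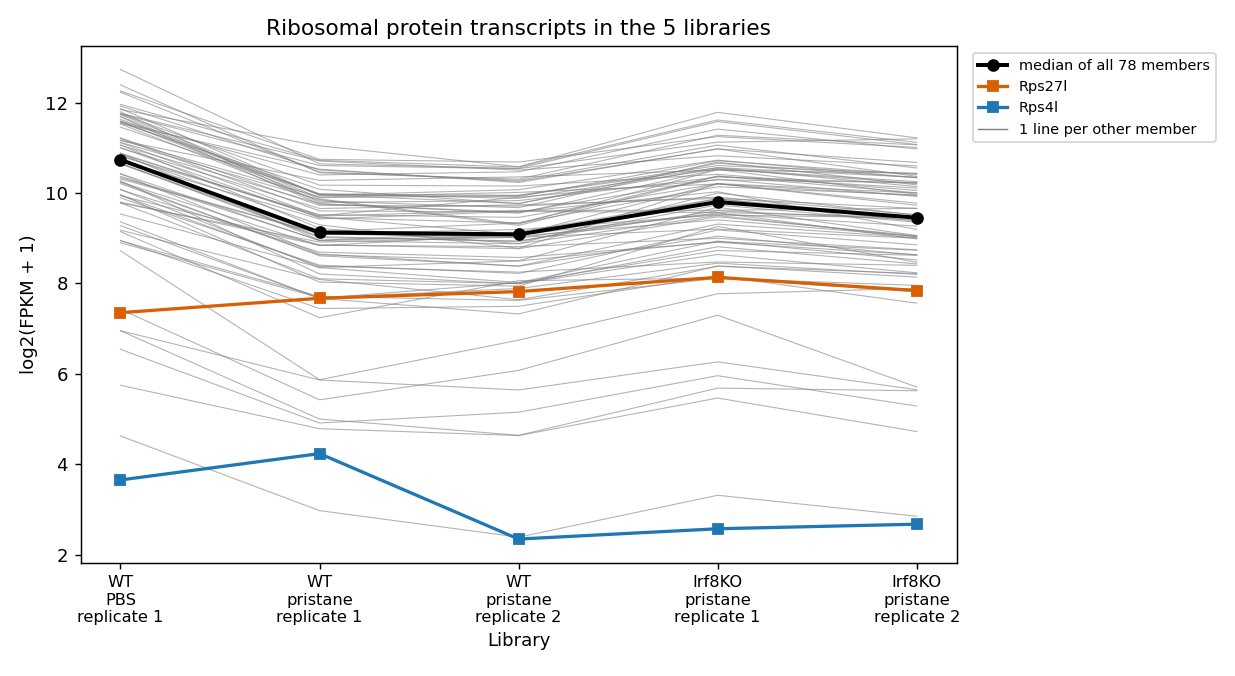
Level of each of the 78 members (log2(FPKM + 1), vertical axis) in the 5 libraries, 1 thin line per member, with the median in black. The lines drop from PBS to pristane, except Rps27l (162 FPKM with PBS, 203 to 280 FPKM with pristane) and Rps4l.

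With 1 PBS library the test assumed that it varied as the pristane pairs did, and without any 1 of the 4 pristane libraries 0 members passed (60 to 73 of 78 at an unadjusted p under 0.05). The count was 11 with no filter on low values, 15 with a pseudocount of 0.1, 22 with median-ratio size factors, 63 with a mean of at least 5 FPKM and 0 when the fit held only the 3 libraries compared (74 at an unadjusted p under 0.05). Library total scaling, with every library set to the same sum, larger than any of the deposited ones, gave 39 members lower, 33 of them among the 37, and a median of −1.54. With that sum at the mean of the 5 totals, so that the filter and the pseudocount kept their scale, it was 56. Since members hold 32.1% of the PBS total, the totals were also taken without them, and then 65 members fell with a median of −1.93 against −0.46 for all genes. The share of all genes called under each of these settings is not given here. The counts therefore show how the call moved with the setting, not how far members stood apart from other genes.

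Markers of cell types differed between the same libraries. B cell markers, all 11 of which fell in WT pristane, summed to 3373 FPKM with PBS, 59.2 and 20.3 FPKM in WT pristane and 246 and 125 FPKM in those labelled Irf8KO. Of 11 T cell markers 1 fell in WT pristane, Cd2, and the other 10 summed to 158.5 FPKM with PBS, 132 and 92.3 FPKM in WT pristane and 51.7 and 41.3 FPKM in those labelled Irf8KO. Of the 16 large peritoneal macrophage markers 10 fell in WT pristane, with a median log2 change of −4.06. In Irf8KO pristane against WT pristane their median was 3.63, and 14 of 16 were higher at an unadjusted p under 0.05 (limma, 0 past the adjusted threshold). Of 13 mature neutrophil markers 11 rose past the threshold in WT pristane against PBS. All 13 summed to 186 FPKM with PBS, 18260 and 16120 FPKM in WT pristane and 49540 and 25530 FPKM in those labelled Irf8KO. Without S100a8, the highest, the other 12 summed to 93.1 FPKM with PBS, 7880 and 6240 FPKM in WT pristane and 20090 and 9230 FPKM in those labelled Irf8KO. Between the pristane groups 11 of the 13 lay higher in Irf8KO and 2 lower. Of these, 4 were higher at an unadjusted p under 0.05 and 0 passed the adjusted threshold (limma). Of the 13 neutrophil markers, Il1r2 and Stfa2l1 were listed at 0 with PBS. Of 12 inflammatory monocyte markers 3 rose in WT pristane against PBS. Hp, which neutrophils also express, was the highest of them, and the other 11 summed to 901 FPKM with PBS, 1263 and 6347 FPKM in WT pristane and 464 and 281 FPKM in those labelled Irf8KO. Between the pristane groups 11 of the 12 lay lower in Irf8KO, with a median log2 change of −2.77, 7 of them at an unadjusted p under 0.05 and 0 past the adjusted threshold (limma). Dividing cell markers summed to 105 FPKM with PBS, 104.9 and 101.2 FPKM in WT pristane and 251 and 243 FPKM in those labelled Irf8KO. Of these 14 markers, 13 were higher in Irf8KO pristane than in WT pristane at an unadjusted p under 0.05 and 0 passed the adjusted threshold (limma). The part of cell makeup in the levels of ribosomal proteins was not tested.

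Among members of the large subunit, Rpl22, an RNA-binding protein on the outside of the particle, had the smallest p. Rpl22 stood at 123 FPKM with PBS, 31.0 and 23.9 FPKM in WT pristane and 50.4 and 48.4 FPKM in those labelled Irf8KO. The PBS library was the highest and both WT pristane libraries the lowest, with no overlap (log2 change −2.13 ± 0.23 SE, adjusted p = 0.0292). Rpl12, a protein at the base of the stalk where translation factors dock, was at 3557 FPKM with PBS and at 885 and 910 FPKM in WT pristane (log2 change −1.99 ± 0.23 SE, adjusted p = 0.0301), with 1306 and 1189 FPKM in those labelled Irf8KO. Rpl5, which carries the 5S RNA and can bind Mdm2, stood at 990 FPKM with PBS, 332 and 304 FPKM in WT pristane and 355 and 337 FPKM in those labelled Irf8KO. All 4 pristane libraries lay far below PBS for Rpl5, within a narrow range (log2 change −1.64 ± 0.20 SE, adjusted p = 0.0313).

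The largest fall among members was that of Rpl26, a large-subunit protein near the exit of the peptide tunnel. Rpl26 stood at 421.5 FPKM with PBS, 57.5 and 106 FPKM in WT pristane and 217 and 236 FPKM in those labelled Irf8KO (WT pristane against PBS log2 change −2.42 ± 0.42 SE, adjusted p = 0.0471). Both WT pristane libraries lay below both libraries labelled Irf8KO, and all 4 below PBS. Rpl3, at the catalytic centre, dropped from 1861 FPKM with PBS to 718 and 784 FPKM and fell by 1.31 on the log2 scale (adjusted p = 0.0449). Rpl10, a late-joining protein of the large subunit, stood at 3439 FPKM with PBS, 1560 and 1486 FPKM in WT pristane and 2231 and 2347 FPKM in those labelled Irf8KO, with a log2 change of −1.18 that missed the threshold (adjusted p = 0.0623).

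The stalk of the large subunit recruits elongation factors and is built from Rplp0 with Rplp1 and Rplp2. Rplp1, the second highest member with PBS, stood at 5369 FPKM there, 1394 and 1267 FPKM in WT pristane and 2480 and 2142 FPKM in those labelled Irf8KO (log2 change −2.01 ± 0.27 SE, adjusted p = 0.0342). Rplp2 was at 578 FPKM with PBS, against 271 and 198 FPKM (log2 change −1.31, adjusted p = 0.0620). Rplp0 was at 2291 FPKM with PBS, against 1241 and 1310 FPKM (log2 change −0.84, adjusted p = 0.0957). The difference between stalk members was not tested.

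Rps27, the highest member with PBS, stood at 6810 FPKM there, 1599 and 1494 FPKM in WT pristane and 3062 and 2152 FPKM in those labelled Irf8KO (log2 change −2.14 ± 0.34 SE, adjusted p = 0.0417). Rps24, a protein needed for 18S RNA maturation, dropped from 1237 FPKM with PBS to 295 and 254 FPKM (−2.17 ± 0.27 SE on the log2 scale, adjusted p = 0.0317), with 448 and 344 FPKM in those labelled Irf8KO. Rps3, which lines the entry of the messenger RNA channel and has a separate role in DNA repair, dropped from 1077 FPKM with PBS to 412 and 380 FPKM (log2 change −1.44, adjusted p = 0.0428). Rps4x, the X-linked small-subunit protein, dropped from 4891 FPKM with PBS to 1715 and 1646 FPKM (log2 change −1.54, adjusted p = 0.0476).

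Rps6 and Rpsa missed the threshold narrowly. Rps6, the target of S6 kinases downstream of mTOR, stood at 1321 FPKM with PBS, 495 and 528 FPKM in WT pristane and 677 and 525 FPKM in those labelled Irf8KO (log2 change −1.37 ± 0.26 SE, adjusted p = 0.0529). Rpsa, also known as the laminin receptor precursor, was at 2044 FPKM with PBS, against 807 and 853 FPKM (log2 change −1.30, adjusted p = 0.0504). For both, no pristane library reached the PBS level.

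**Figure D3:**
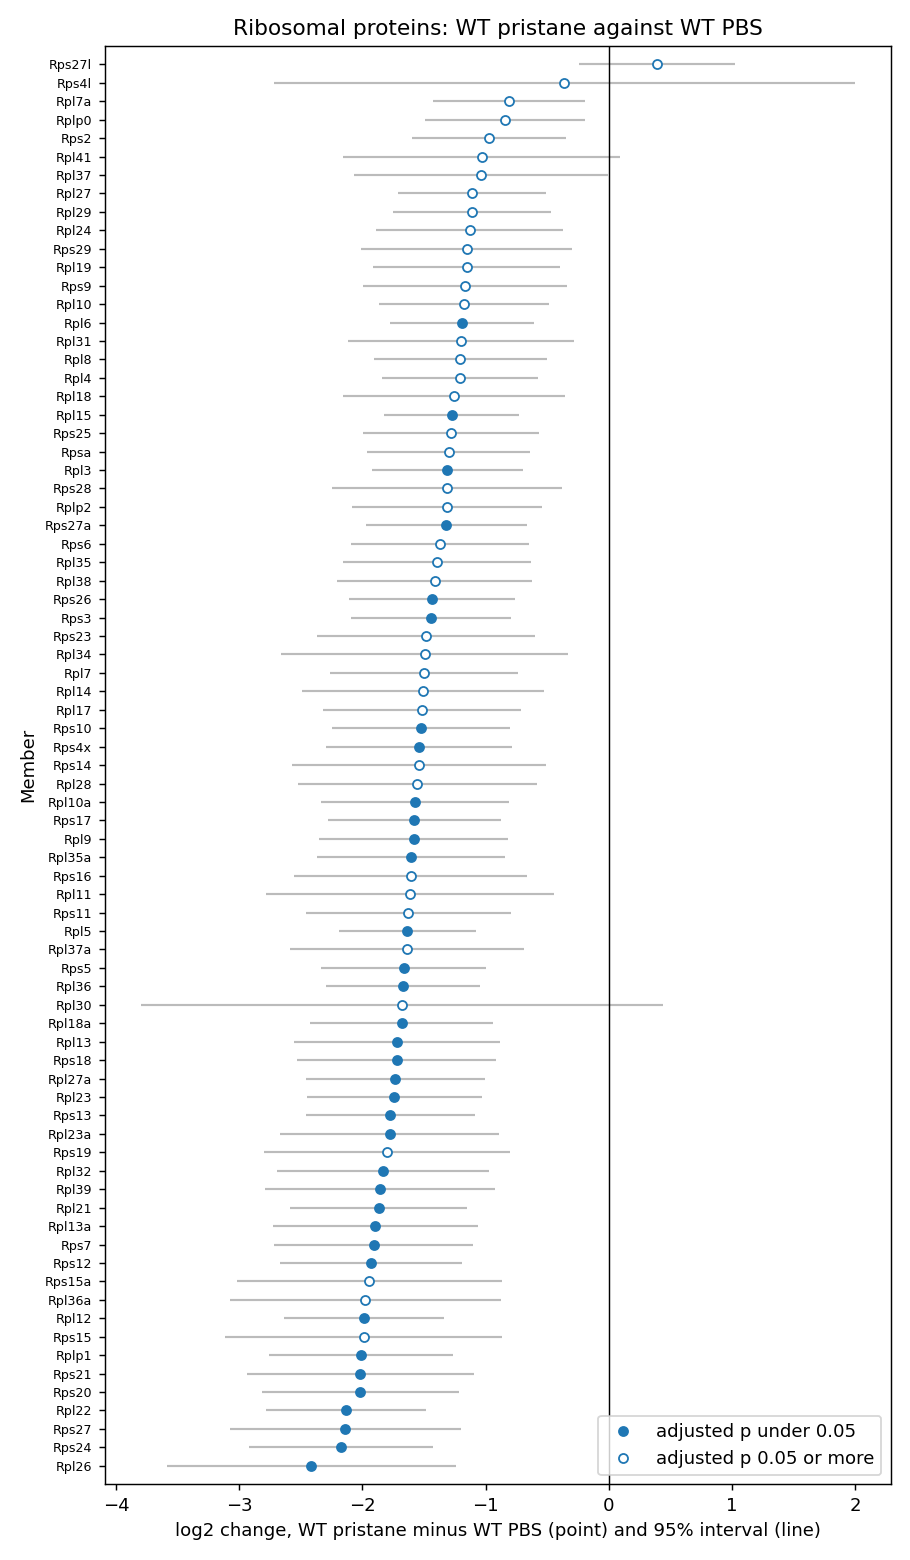
Log2 change between WT pristane and WT PBS (horizontal axis) for 77 of the 78 members, each with its 95% interval as a line, filled where the adjusted p is under 0.05. The points run from −2.42 for Rpl26 to 0.39 for Rps27l, and the intervals of 4 members, Rpl30, Rpl41, Rps27l and Rps4l, hold 0.

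Some members departed from the rest. Rps27l, a paralog of Rps27 that is induced by p53, stood at 162 FPKM with PBS, 203 and 225 FPKM in WT pristane and 280 and 229 FPKM in those labelled Irf8KO. It was lowest with PBS, the reverse of Rps27, with a log2 change of 0.39 ± 0.23 (SE) and an interval from −0.24 to 1.02 (adjusted p = 0.297). Rps4l, which RefSeq lists as a transcribed pseudogene of the Rps4 family, stood at 11.6 FPKM with PBS, 17.8 and 4.08 FPKM in WT pristane and 4.95 and 5.39 FPKM in those labelled Irf8KO. Its WT pristane pair lay on both sides of PBS, and the log2 change of −0.36 turned to 0.58 without WT pristane replicate 2. Rpl7a, a large-subunit protein, had the smallest difference after these paralogs, at −0.81 (adjusted p = 0.0937). Rpl41, the smallest protein of the ribosome, stood at 3678 FPKM with PBS, 2109 and 1531 FPKM in WT pristane and 3528 and 2383 FPKM in those labelled Irf8KO (log2 change −1.03, adjusted p = 0.170).

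Relative to the other members, a shift common to all drops out. With each library divided by its median member, a check added after the values were seen, 3 members were called between WT pristane and PBS, all higher: Rps27l, Rplp0 and Rpl7a. On this scale, log2 level minus that of the library's median member, Rps27l changed by 2.02, Rpl7a by 0.82 and Rplp0 by 0.78. At the low end Rpl26 stood at −0.79, Rps24 at −0.54 and Rps27 at −0.51, none of them called on this scale. The share of all genes called on it is not given here.

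Levels of single members are uncertain where near-identical copies exist, since the mouse genome holds many processed ribosomal protein pseudogenes. Rps15a was listed at only 23.7 FPKM with PBS and 4.24 to 8.95 FPKM with pristane, and Rpl37 at 52.8 FPKM with PBS, far under the median member. The 7 pseudogene entries that carry a ribosomal protein symbol summed to 2098 FPKM with PBS and 610 to 1159 FPKM with pristane. Of that, Rpl34-ps1, named after its values were seen, had 2033 FPKM with PBS, against 566 FPKM for Rpl34 itself. The sources used here do not say how fragments were divided between such copies.

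The second comparison set Irf8KO pristane against WT pristane, for a difference with genotype after the oil. No Irf8KO library without pristane was analysed here, so an effect on the response and a difference already present before it cannot be told apart. No member passed the threshold (limma-trend, 0 of 78), where 0% of all genes were called higher and 0.027% lower. At an unadjusted p under 0.05 there were 19 members higher and 0 lower, against 10.5% of all genes higher and 10.1% lower. The median log2 change was 0.50 against 0.00 over all genes tested, 0.48 for the large and 0.52 for the small subunit. As deposited 76 members lay above 0 and 2 below, and with library total scaling 61 lay above and 17 below.

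In FPKM as deposited, both libraries labelled Irf8KO lay above both WT pristane libraries for 58 of 78 members, against 26.1% of all genes. The reverse was seen for 0 members, and was not counted over all genes. Neither count was repeated with library total scaling. With library total scaling the median was 0.27 and that of all genes moved to −0.18. The median was 0.32 without Irf8KO pristane replicate 1 and 0.65 without replicate 2. Irf8KO replicate 1 exceeded replicate 2 for 74 of 78 members, and its summed FPKM was the highest of the 5 libraries.

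The largest difference was that of Rpl26, whose values are given above (log2 change 1.52 ± 0.34 SE, adjusted p = 0.148). This comparison shares its WT pristane libraries with the first, so the fall of Rpl26 against PBS is not a separate result. Rps19, mutated in Diamond-Blackfan anaemia, stood at 628 and 438 FPKM in WT pristane and 1179 and 875 FPKM in those labelled Irf8KO, with no overlap (log2 change 0.95 ± 0.29 SE, adjusted p = 0.204). Rps26 stood at 203 and 258 FPKM against 423 and 393 FPKM (log2 change 0.83, adjusted p = 0.156). These 2 small-subunit proteins had means 1.93 and 1.77 times those of WT pristane. Rpl36a had a log2 change of 0.88, with 260 and 245 FPKM against 613 and 353 FPKM.

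At the other end Rps4l, with 17.8 and 4.08 FPKM in WT pristane against 4.95 and 5.39 FPKM, had the lowest value, a log2 change of −0.67 (adjusted p = 0.626) with overlapping groups. Rpl7, Rpl4 and Rpl11 came next, near 0. Rpl4 stood at 687 and 772 FPKM in WT pristane and 759 and 704 FPKM in those labelled Irf8KO, with overlapping groups. The log2 change of Rpl7 was −0.005 (interval −0.63 to 0.62) and that of Rpl11 0.02 (−0.94 to 0.97), so changes of some size in either direction lie within their intervals. The difference between the pristane groups moved with coding length, taken from GENCODE M21. Across the 77 members with a coding sequence, Pearson's r between log2 length and log2 change was −0.51 (Spearman −0.55), where all members share the same libraries.

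The 26 members with a coding sequence under 400 bases had a median log2 change of 0.66, the 38 of 400 to 700 bases 0.54 and the 13 over 700 bases 0.12, limits chosen after the values were seen. Other genes showed a shift of the same sign. Non-members had medians of 0.42 under 400 bases (579 genes), 0.13 from 400 to 700 bases (1428 genes) and −0.05 over 700 bases (8184 genes). The part of length in the difference was not tested. In WT pristane against PBS the same classes of members had medians of −1.62, −1.60 and −1.30, while non-members had −0.06, 0.09 and −0.08, so there short genes outside the family lay near 0.

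**Figure D4:**
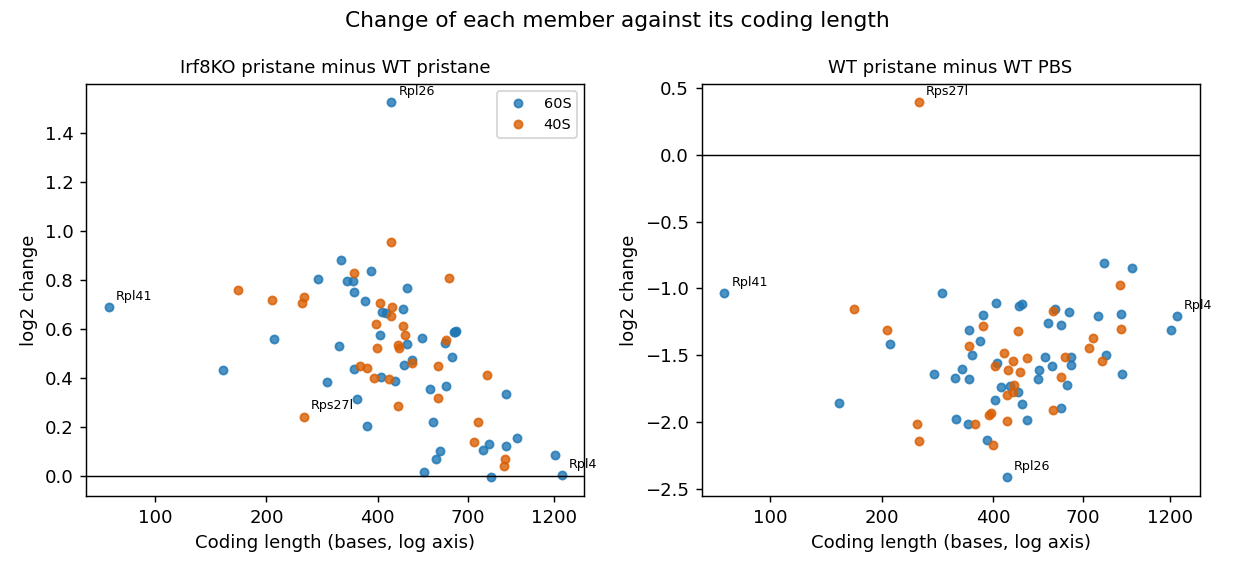
Log2 change of each member with a coding sequence against its coding length (bases, log axis), for Irf8KO pristane minus WT pristane (left) and WT pristane minus WT PBS (right). On the left short members lie higher (medians 0.66 under 400 bases and 0.12 over 700 bases, as deposited), and on the right all but Rps27l lie below 0.

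The third comparison, Irf8KO pristane against WT PBS, shares its PBS library with the first. Of 78 members 3 fell and none rose (limma-trend adjusted p under 0.05), where 4.72% of all genes were called lower and 3.81% higher. Those 3 were Rpl5 (log2 change −1.52 ± 0.20 SE, adjusted p = 0.0378), Rpl12 (−1.51 ± 0.23 SE, adjusted p = 0.0442) and Rps24 (−1.65 ± 0.27 SE, adjusted p = 0.0468). At an unadjusted p under 0.05, 58 members were lower and 1 higher, against 18.1% and 15.6% of all genes. The median was −1.08 against −0.05 over all genes, and both libraries lay below PBS for 77 members and 46% of all genes. Rps27l was the exception, with a log2 change of 0.64 (adjusted p = 0.147).

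The count changed with scaling, and is given here without the share of all genes called in each setting. It was 19 with library total scaling, 38 with totals set to their mean and 52 with totals taken without the members, and the median was −1.31, −1.31 and −1.66 while that of all genes was −0.27, −0.24 and −0.60. Without any 1 of the 4 pristane libraries it was 0, with 27 to 54 at an unadjusted p under 0.05. Rpl41 (−0.34) and Rps29 (−0.39) had the smallest differences among the other members.

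Genes that work with the ribosome were read from lists. The 7 ribosomal proteins and paralogs spelled otherwise had a median of −1.19 in WT pristane against PBS, and 1 passed. Rps3a1 dropped from 3279 FPKM with PBS to 1115 and 1026 FPKM (log2 change −1.62, adjusted p = 0.0420). Fau, which encodes a small-subunit protein fused to a ubiquitin-like protein, was at 3316 FPKM with PBS, against 1584 and 1337 FPKM (adjusted p = 0.0917). The paralog Rpl22l1 was at 71.1 FPKM with PBS, against 17.0 and 27.5 FPKM. The paralog Rpl36al stood at 513 FPKM against 396 and 513 FPKM, a log2 change of −0.19, and Rpl36a had −1.98 (adjusted p = 0.0569). The difference between these was not tested.

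Over all genes tested, 5.46% were called lower and 5.18% higher in WT pristane against PBS. Of 23 other genes known for a TOP tract, 8 fell and none rose after pristane in WT, with a median of −1.10. Of the 8 elongation factors, which overlap that list, 3 fell and 0 rose past the threshold. In the other direction 2 of the 8 lay above 0, 1 of them at an unadjusted p under 0.05 (limma). Eef1b2, an exchange factor of elongation, dropped from 566 FPKM with PBS to 184 and 154 FPKM (−1.75 ± 0.21 SE on the log2 scale, adjusted p = 0.0313). Eef1d and Eef1g, other subunits of the same exchange complex, fell by 1.26 and 1.39 (adjusted p = 0.0350 and 0.0442, limma). Eef1a1 and Tpt1 were among the highest of these genes, at 2276 and 4262 FPKM with PBS, with changes of −0.64 and −0.67 that missed the threshold (adjusted p = 0.183 and 0.195, limma). Snhg8 and Gas5, host genes of small nucleolar RNAs, fell by 1.61 and 1.54 on the log2 scale (adjusted p = 0.0348 and 0.0461, limma).

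Other lists of protein synthesis and RNA handling were read the same way. Beside 5.46% of all genes called lower and 5.18% higher, the single calls below do not set a list apart. Among 36 initiation factors 1 fell, Eif4b (−1.66, adjusted p = 0.0498), and 1 rose, Eif6, which keeps the subunits apart (1.25, adjusted p = 0.0490), with a median of −0.18. Of 50 ribosome biogenesis factors 1 fell, Npm1 (−1.39, adjusted p = 0.0462), with a median of −0.29. Of 77 mitochondrial ribosomal proteins none fell and 1 rose, Mrpl27 (1.30, adjusted p = 0.0449), with a median of −0.10. The 16 Sm and LSm proteins had a median of −0.60 and none passed (limma, 4 lower at an unadjusted p under 0.05).

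**Figure D5:**
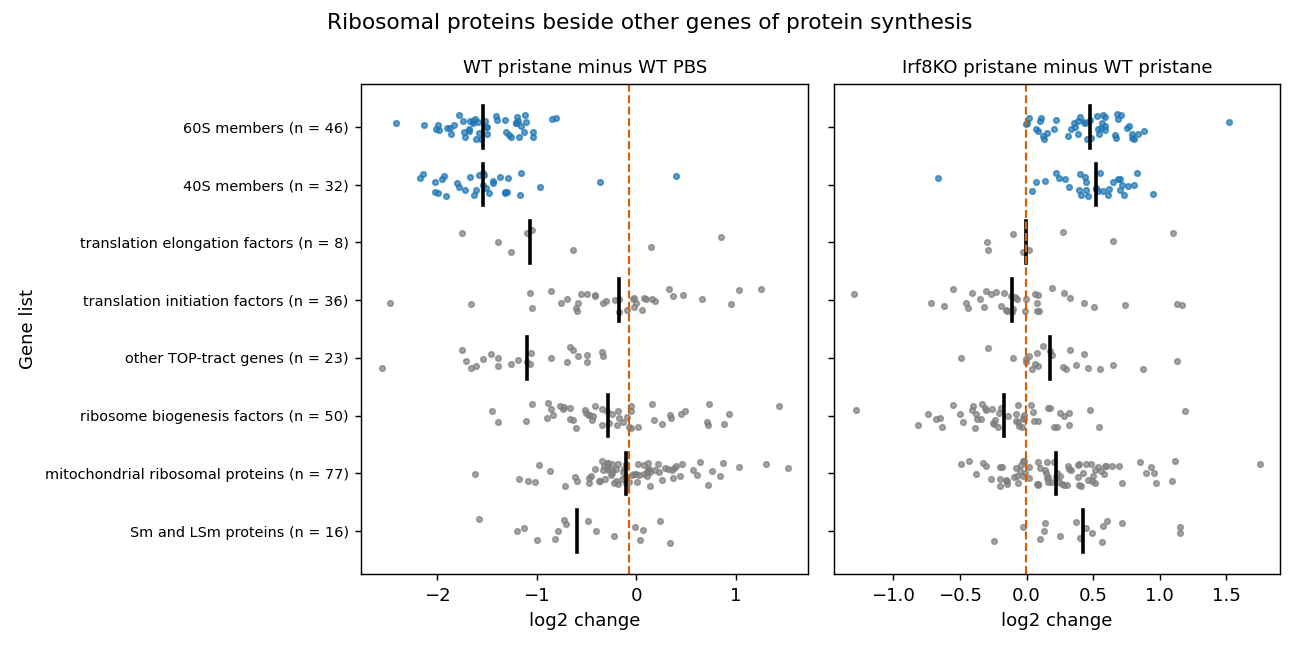
Log2 change (horizontal axis) of each gene in 8 lists, 1 point per gene, with the list median as a black bar and the median of all genes tested as a dashed line, for WT pristane minus WT PBS (left) and Irf8KO pristane minus WT pristane (right). On the left the 2 subunits lie around −1.54 and mitochondrial ribosomal proteins around −0.10, as deposited.

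Among 18 tested regulators of ribosomal protein synthesis 1 rose after pristane in WT, where 5.18% of all genes were called higher. Eif4ebp1, which holds back cap-dependent translation until mTOR phosphorylates it, stood at 44.0 FPKM with PBS, 127 and 170 FPKM in WT pristane and 179 and 173 FPKM in those labelled Irf8KO (log2 change 1.72 ± 0.25 SE, adjusted p = 0.0373). Myc, the transcription factor that drives ribosome production, stood at 50.4 FPKM with PBS, 5.23 and 12.6 FPKM in WT pristane and 10.7 and 10.6 FPKM in those labelled Irf8KO. All 4 pristane libraries lay below PBS for Myc, and the change missed the threshold (log2 change −2.49 ± 0.52 SE, adjusted p = 0.0623). Between the pristane groups 0 genes of these lists passed (limma). The medians there were 0.33 for the proteins spelled otherwise (1 of 7 higher at an unadjusted p under 0.05), 0.22 for mitochondrial ribosomal proteins (11 of 77), 0.42 for Sm and LSm proteins (4 of 16), 0.17 for the other TOP genes (3 of 23), 0.00 for elongation factors (2 of 8), −0.11 for initiation factors (2 of 36), −0.17 for biogenesis factors (1 of 50) and −0.07 for regulators (1 of 18). At the same level 1 initiation factor, 3 biogenesis factors and 1 regulator were lower. Of all genes tested, 10.5% were higher and 10.1% lower at that level.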

How the data were processed

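RNA of peritoneal cells was measured in 5 libraries. The deposited table calls itself a table of counts, but its values are FPKM, with 1 column per library. Per the submitters' processing notes BWA, Cuffnorm, TopHat2 2.0.10 and Cufflinks 2.2.1 were used, in roles the notes do not state. The sources used here name no build, annotation or scaling between libraries. Of the symbols, 27 had been turned into dates and were not named.

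Genes with at least 1 FPKM in 1 library (11117) entered a limma-trend fit (limma 3.58.1, R 4.3.3) of log2(FPKM + 1), with a mean for each of the 3 groups and all 5 libraries together (residual degrees of freedom 2, prior 1.99). P-values were 2-sided and Benjamini-Hochberg adjusted over all genes tested. Each log2 change is the difference between group means on that scale, which understates changes of low genes, and intervals are 95%. The fit was tested on simulated data with the same spread in every library. That test cannot tell whether the PBS library varied as the pristane pairs did. Depth was estimated from the commonest step, FPKM times transcript length, among low genes with a single transcript in GENCODE M21. The steps were clearest in the PBS library, where 80.0% of such values lay within 0.15 of whole, and least clear in Irf8KO pristane replicate 1 (63.0%).

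The members, lists and tests were chosen with earlier results of these data known. Named members were, by rule and per comparison, the 5 with the smallest p, the 3 with the largest rise and the 3 with the largest fall, then the 4 highest and 4 lowest, the stalk, paralogs beside their parents and members with roles of their own. Of other lists up to 4 with the smallest p and the 2 highest could be named. Alternatives were other scalings, pseudocounts, filters, sets of libraries, limma without trend and a replicate block. Coding lengths came from GENCODE M21, promoters from RefSeq. Some genes that count in the totals are not reported here by name.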

Additional observations from a re-analysis of the deposited data

How the results depend on the processing

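In WT pristane against PBS, the median of the members stayed below 0 under each alternative but division by the median member, which centres it (0.09): it lay between −1.57 and −1.53 when a library was left out, and at −1.93 with totals taken without the members. Their count of 37 past the threshold was 65 with totals taken without the members, 56 with totals set to their mean, 63 with a mean of at least 5 FPKM, 22 with median-ratio size factors, 15 with a pseudocount of 0.1, 11 with no filter, 3 (all higher) relative to the median member, and 0 with only the libraries compared or without any 1 pristane library. All 22, 15 and 11 of these were among the 37. Dropping the filter brought more genes under the adjustment (15245) and the stricter filter fewer (5894). For the other settings the cause was not tested. Counts under the alternatives, here and below, are given without the share of all genes called in the same setting.

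In Irf8KO pristane against WT pristane, the count was 0 under each alternative except the replicate block, which called 2 members, Rpl26 and Rps19, among 799 genes. The labels link same-numbered pristane libraries by the number alone, so it is not known whether they were paired. Their deviations from the group means correlated at 0.04, which with 2 libraries per group cannot decide it. The median of 0.50 was 0.27 with library total scaling at either total, 0.31 with totals taken without the members, and 0.32 to 0.65 when a library was left out. The sign turned for 15 members with library total scaling at either total and for 12 with totals taken without the members. Among the named members these were, with library total scaling and with totals without the members, Rpl3 (−0.146, −0.11), Rpl4 (−0.226, −0.19), Rpl5 (−0.109, −0.073), Rpl7a (−0.1, −0.063), Rpl11 (−0.215, −0.178), Rplp0 (−0.079, −0.042), Rps3 (−0.092, −0.056), Rpsa (−0.16, −0.124) and, with library total scaling alone, Rps6 (−0.01). Totals set to their mean gave the first of these values, except −0.214 for Rpl11. Leaving out a library moved Rpl4 between −0.078 and 0.09, Rpl7 between −0.199 and 0.189 (0.004 without WT pristane replicate 1), Rpl11 between −0.4 and 0.435, Rpl30 between −0.042 and 1.547, Rpl34 between −0.096 and 0.724, Rpsa between −0.039 and 0.183 and Rps4l between −1.612 and 0.278. None of these was past the threshold. Rps4l also turned to 0.58 in WT pristane against PBS without WT pristane replicate 2.

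In Irf8KO pristane against PBS, the count of 3 was 19, 38 and 52 with library total scaling, totals set to their mean and totals without the members, 11 with a pseudocount of 5, 21 with a mean of at least 5 FPKM, 1 with a pseudocount of 0.1 or no filter, 1 (Rps27l, higher) relative to the median member, and 0 with only the libraries compared or without any 1 pristane library. The median of −1.08 was −1.31, −1.31 and −1.66 under the same 3 scalings and −1.24 to −0.92 when a library was left out. Shares of FPKM without the 50 highest other genes were 40.6% with PBS, 15.8% and 15.1% in WT pristane and 22.3% and 19.2% in the libraries labelled Irf8KO, and 33.2% with PBS among genes with a mean of at least 5 FPKM. Rpl22, Rpl37 and Rps15a rested on 33, 58 and 64 estimated fragments in WT pristane replicate 2, the fewest among members with an estimate. These numbers depend on the transcript taken for each gene, which for Rps15a had 5179 bases.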

Other observations

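Rps27rt, a retrogene copy of Rps27, stood at 2.55 FPKM with PBS, 234 and 63.2 FPKM in WT pristane and 22.4 and 75.6 FPKM in those labelled Irf8KO. It was chosen after its values were seen and lies outside the members' spelling. All 4 pristane libraries lay above PBS, while Rps27 was lower in all 4. The log2 change between WT pristane and PBS was 5.11 ± 1.11 (SE, limma adjusted p = 0.0649).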
